A study of Mus musculus with 42 samples.

Results

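The bone morphogenetic protein (BMP) genes described here are 4 ligands (Bmp2, Bmp4, Bmp5 and Bmp7), the secreted inhibitor Nog (noggin), the type I receptor Bmpr1a, the inhibitory Smad Smad6 and the Id genes Id1, Id2 and Id3. They were chosen by name: all probe sets on either chip whose single gene symbol in the platform annotation was one of these 10, among 18194 genes named that way. This gave 21 probe sets among 45265, with 19 on the 430A chip and 2 on the 430B chip. Of these, 17 probe sets of 9 genes were bright enough to be tested, among 34925 tested in all. Nog had no tested probe set.

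The cells were D3 mouse embryonic stem cells, a line derived from the blastocyst, cultured towards osteoblasts, the cells that make bone matrix. RNA was taken on days 4, 5 and 6 and then on days 8, 16, 25 and 30, with 3 replicates a day, and each was hybridised to both chips. By the growth protocol in the labels, all days shared DMEM medium with vitamin D3, beta-glycerophosphate and ascorbic acid, while the titles name VD3 only from day 6 on. No undirected cultures were analysed here. The purity is labelled as a pure clone, and the labels do not say whether replicates were separate cultures, so the spread behind the p-values may be technical.

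BMP ligands are secreted dimers that bring together type I receptors such as Bmpr1a with type II receptors. The type I receptor phosphorylates Smad proteins, which enter the nucleus with Smad4 and act on target genes. The Id genes are among the best known of these targets, and Id proteins bind E proteins and keep them from DNA. Smad6 is itself a target and damps the signal inside the cell, while noggin binds the ligands outside it. The pathway is known for its role in bone formation and, in early embryonic cells, in the choice between germ layers.

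Reference promoters were available for 6 of the 10 genes, from RefSeq on build GRCm38.p6, and the 250 bases before the start of each gene were searched on both strands for 2 motifs bound by Smad proteins, GGCGCC and, as the shorter of the pair, GTCTG. The former is known from BMP target genes and the latter is a general Smad-binding sequence. The 3 genes below changed over the days and held a match, which is shown in capitals. The Id2 window is chr12:25096093-25096342 on the minus strand, the Bmpr1a window is chr14:34502547-34502796 on the minus strand, and the Bmp5 window is chr9:75775115-75775364 on the plus strand.
Id2: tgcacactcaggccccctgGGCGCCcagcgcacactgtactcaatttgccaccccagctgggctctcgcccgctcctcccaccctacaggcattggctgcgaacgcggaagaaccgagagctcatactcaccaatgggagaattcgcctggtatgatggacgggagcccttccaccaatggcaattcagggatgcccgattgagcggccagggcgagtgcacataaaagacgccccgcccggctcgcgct
Bmpr1a: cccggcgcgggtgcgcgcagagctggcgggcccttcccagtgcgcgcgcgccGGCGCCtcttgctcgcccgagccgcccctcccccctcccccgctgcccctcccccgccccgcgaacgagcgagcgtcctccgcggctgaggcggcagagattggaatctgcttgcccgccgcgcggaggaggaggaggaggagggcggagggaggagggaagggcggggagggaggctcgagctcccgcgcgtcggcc
Bmp5: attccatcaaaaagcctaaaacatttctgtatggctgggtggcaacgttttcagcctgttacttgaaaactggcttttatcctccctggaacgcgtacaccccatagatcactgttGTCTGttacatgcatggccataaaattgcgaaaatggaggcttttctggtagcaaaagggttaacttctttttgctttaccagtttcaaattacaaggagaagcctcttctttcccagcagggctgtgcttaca
The match lay 231 bases before the start in Id2, 198 in Bmpr1a and 134 in Bmp5. GGCGCC is found in 9.59% and GTCTG in 42.2% of the 32851 promoter windows searched. Bmp4 and Smad6 held neither motif, and Id3 held GTCTG in 2 places. A match is a description of the letters only.

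Among the 17 tested probe sets, 2 of the 3 of Id2 and the 1 of Bmp2 rose from day 4, and 3 of the 5 of Bmpr1a did so on 1 or 3 of the later days by less than 2-fold. The 1 of Bmp4, 1 of the 2 of Bmp5 and 1 of the 2 of Bmp7 were lower late in the course. The remaining probe sets of these genes, and those of Id1, Id3 and Smad6, passed no comparison with all arrays in the fit. In the F test over the 7 days, 7 probe sets of 6 genes passed an adjusted p of 0.05 (limma with Benjamini-Hochberg adjustment over all probe sets of a chip), which is 41.2%, beside 22.4% of all tested probe sets. Calls were more frequent on 430A, which held 16 of the 17: there 6 of 16 passed (37.5%), beside 36.2% of that chip, so the share of members was near that of the chip as a whole. On day 5 against day 4 the unadjusted p was under 0.05 for 5 member probe sets, for which no share over all probe sets was computed. Against day 4, none passed on day 5 after adjustment, where 0.00573% of all probe sets did. On day 6 the count was 3, all higher, where 4.13% of all probe sets passed and 2.35% were higher. On day 8 it was 3, all higher (9.47% of all, 5.76% higher), and on day 16 it was 4, all higher (15.2% of all, 8.72% higher). On day 25 it was 4, with 3 higher and 1 lower (15.9% of all, 8.3% higher and 7.64% lower). On day 30 it was 5, with 4 higher and 1 lower (17.4% of all, 8.99% higher and 8.43% lower). All of these calls against day 4 were on 430A, where the shares of its own probe sets that passed were 7.46%, 16.5%, 25.6%, 26.5% and 28.1% on days 6, 8, 16, 25 and 30, beside 18.8%, 18.8%, 25%, 25% and 31.2% of the 16 members. These comparisons share the day 4 arrays. The levels are log2 signal of each probe set and are not comparable between probe sets. RNA came from whole cultures, so fewer cells of a type and less RNA per cell cannot be told apart.

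**Figure D1:**
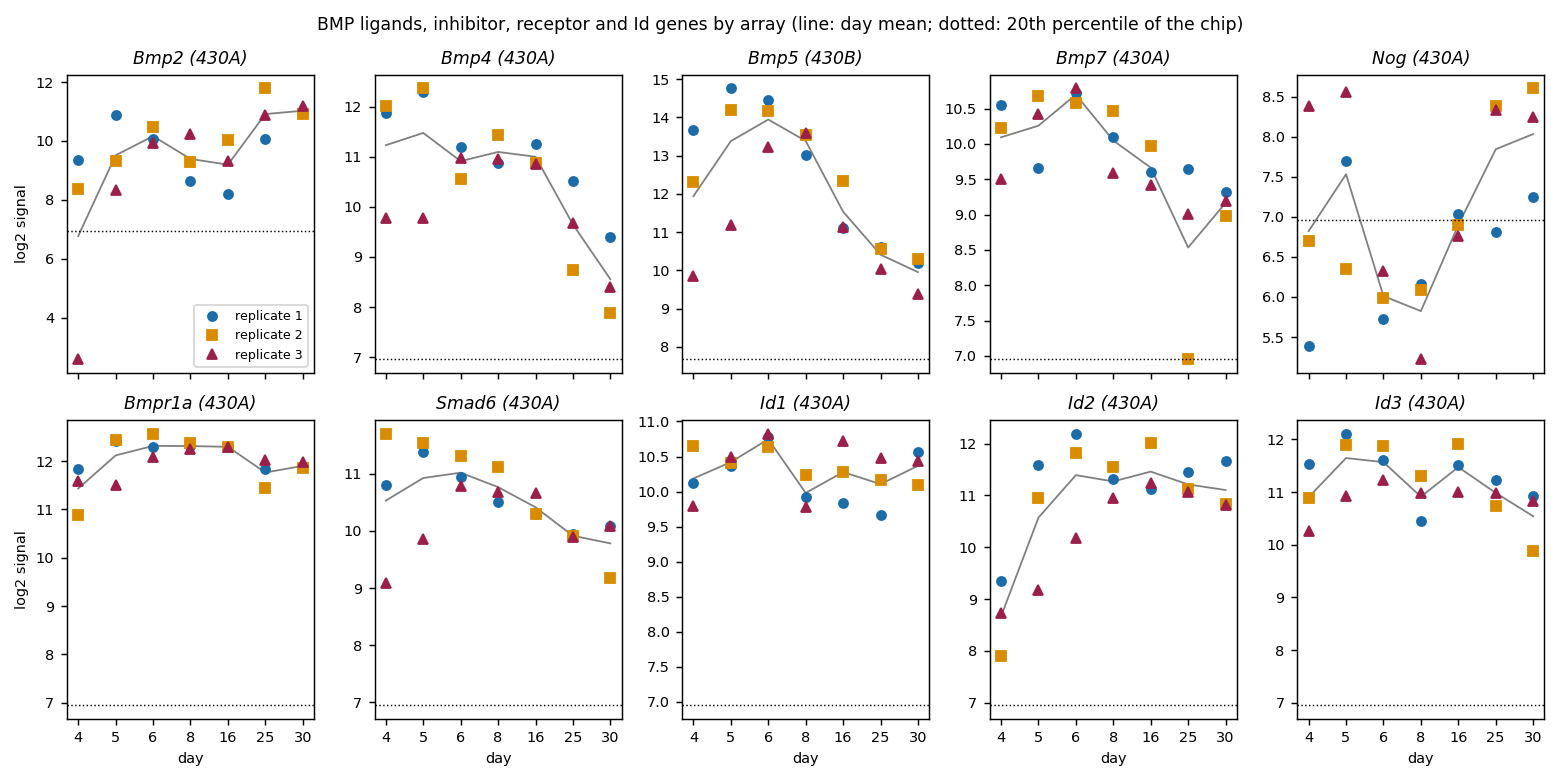
Log2 signal (vertical axis) on each array by day (horizontal axis, evenly spaced) for 1 probe set of each gene. Replicates are symbols, the day mean is a line and the chip's 20th percentile is dotted. Where a gene had several probe sets, the one with the smallest p in the F test is shown. Some other probe sets of Id2, Bmp5, Bmp7 and Bmpr1a did not pass that test. Id2 climbs from 7.91 to 9.34 on day 4 to above 10 from day 6, Bmp4 and Bmp5 fall after day 16 and day 8, and Id1 stays between 9.67 and 10.83.

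The arrays differed in ways that touch these genes. The third replicates of days 4, 5 and 6 had the highest summed signal of 6 pluripotency markers of their day, 124100, 55990 and 22550, against 20340 to 72990, 3783 to 14020 and 3747 to 8347 in the other replicates. They also had the lowest summed signal of 6 endoderm markers, 2684, 5500 and 7836. Of the 17 member probe sets, 10, 13 and 11 had their lowest value of the day on these arrays. Such counts were not particular to them. They were 11 on the first replicates of days 8 and 16 and 10 on the second replicate of day 30. Those arrays had the lowest pluripotency sums of their days. Calls of the members gained or lost without the third replicates of days 4 to 6 are given both ways, an alternative chosen after the data were seen. The part of the pluripotency and endoderm markers in the results was not tested. By scan date, the 430A arrays of days 4 and 5, of days 6, 8 and 16, and of days 25 and 30 were scanned apart, with 1 array of day 25 in a scan of its own. A difference of day 6 or later from day 4 and a difference between scans therefore cannot be told apart on that chip. On 430B, 1 array of day 5 was scanned with days 6 to 16, which links those days to day 4, while the arrays of days 25 and 30 fell into 3 scans that held no earlier day. The log2 ratio of the 3' to the 5' Gapdh control on 430A was 3.84 ± 0.38 on day 25 and 3.27 ± 0.19 on day 30 against 2.63 ± 0.37 on day 4 (SD, n = 3), and its part in the late values was not tested. Of the 8 osteoblast markers listed 4 were measured: Sparc and Col1a1 rose by 4.70 and 4.07 on the log2 scale by day 30, while Sp7 (0.37) and Alpl (-1.23) did not pass. Their summed signal was 5156 to 13540 on day 4 and 144700 to 183000 on day 30.

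Markers of other cell types also moved over the days. The summed signal of the 6 pluripotency markers was 20340 to 124100 on day 4 and 2135 to 2958 on day 30, and that of the 6 endoderm markers was 2684 to 18060 and 56170 to 65240. The 6 cardiac muscle markers summed to 3519 to 6827 on day 4, 4125 to 6700 on day 5 and 4771 to 96050 on day 6. Their sum was 47180 to 100900 on day 8 and 6520 to 9162 on day 30. Of these genes Myl3 was higher on day 30 than on day 4 by 3.04 on the log2 scale (adjusted p = 0.0079 in limma). The other cardiac markers did not pass. For endothelial markers (5 of 6 measured) the sum was 2159 to 11090 on day 4, 11560 to 12760 on day 8 and 5275 to 5420 on day 30. The single genes differed in direction on day 30 against day 4. Tek, Cdh5 and Esam gave 1.70, 0.95 and 1.95 on the log2 scale (adjusted p = 0.0103, 0.0119 and 0.00256 in limma). Kdr gave -1.44 (adjusted p = 0.0243), and Pecam1 (0.61) did not pass. For macrophage markers (5 of 6 measured) the sum went from 3349 to 4349 on day 4 to 16130 to 20230 on day 30, and for the 6 of simple epithelium from 42440 to 81780 to 109200 to 173100. The neural markers (3 of 6 measured) summed to 859 to 2223 on day 4 and 3519 to 8952 on day 16. The part of these cell types in the results was not tested.

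Bmp5, a ligand of the 60A subgroup that also holds Bmp7, was high on days 5 to 8 and low on days 25 and 30. Probe set 1455851_at on 430B read 13.67, 12.30 and 9.85 on the 3 arrays of day 4. On day 5 it read 14.76, 14.18 and 11.19, and on day 6 it read 14.45, 14.15 and 13.22. The third replicate was the lowest on all 3 of these days. On day 8 the values were 13.02, 13.53 and 13.60, and on day 16 they were 11.12, 12.35 and 11.13. By day 25 they were 10.62, 10.57 and 10.04, and by day 30 they were 10.18, 10.30 and 9.38, so that every array of days 25 and 30 lay below every array of days 5, 6, 8 and 16. The F test gave an adjusted p of 0.00151 in limma.

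Days 6 and 30 both carry VD3 in their titles, and their comparison was chosen with the values already known. These days shared no scan on either chip, so a difference between them and a difference between scans cannot be told apart. Bmp5 1455851_at was 15.9-fold lower on day 30 than on day 6 (log2 difference -3.99, SE 0.74, adjusted p = 0.00175 in limma). Against day 4 the difference was -1.98 on day 30 (SE 0.74, adjusted p = 0.111), and the arrays of the 2 days overlapped, since the third replicate of day 4 was as low as the late ones. Without the third replicates of days 4 to 6 it was -3.03 (SE 0.41, adjusted p = 6.92e-05), and days 16 and 25 then passed as well, at -1.45 (adjusted p = 0.0398) and -2.57 (adjusted p = 0.000502). With all arrays, the differences of days 6, 8 and 16 from day 4 were 2.00, 1.44 and -0.41, and with scan date as a fixed block they were -0.08, -0.64 and -2.49 (SE 1.32 for each). None of these passed, with or without the block (adjusted p 0.224 to 1), and the sign on days 6 and 8 turned with it. Days 6 and 16 were scanned in 1 batch, and there Bmp5 was 5.31-fold lower on day 16 (adjusted p = 0.112), or 6.82-fold lower (adjusted p = 0.000731) without those arrays. From day 8 to day 16, in the same batch, it was 3.60-fold lower (adjusted p = 0.0161) without those arrays, and did not pass with them. Of the other Bmp5 probe sets, 1421283_at lay under the chip's 20th percentile on 7 of 21 arrays and did not pass (F adjusted p = 0.298). Without the third replicates of days 4 to 6 it did (F adjusted p = 0.0449). The log2 difference of day 30 was then -2.75 from day 4 (adjusted p = 0.0317) and -2.96 from day 6 (adjusted p = 0.0309). Both are as fitted in limma, with no value raised. On day 30, 2 of the 3 arrays lay under that percentile, so the sizes are uncertain. The remaining one, 1421282_at, lay under that percentile on 16 arrays and was not tested.

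Bmp4, a ligand of the subgroup it shares with Bmp2, was flat from day 6 to day 16 and lower after that. Probe set 1422912_at read 11.88, 12.02 and 9.79 on day 4 and 12.29, 12.37 and 9.77 on day 5. All 9 arrays of days 6, 8 and 16 lay between 10.56 and 11.44. The signal was 10.51, 8.74 and 9.68 on day 25 and 9.40, 7.88 and 8.39 on day 30. No array of day 30 reached the lowest array of day 4 or of day 6. The signal was 6.37-fold lower on day 30 than on day 4 (log2 difference -2.67, SE 0.62, adjusted p = 0.00263 in limma). Without the third replicate of day 4 it was 10.5-fold lower. Against day 6 it was 5.11-fold lower (SE 0.62, adjusted p = 0.0097), a call lost without the second replicate of day 30 (adjusted p = 0.0536). On day 25 the difference from day 4 was past the threshold only without the third replicates of days 4 to 6 (4.94-fold lower, adjusted p = 0.000899).

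Bmp2, long used to induce bone formation, went the other way. Its 1 probe set, 1423635_at, read 9.35, 8.38 and 2.58 on day 4. The last value lies far under the 20th percentile of the chip (6.96) and is only a bound. The signal was 10.07, 11.79 and 10.87 on day 25 and 10.99, 10.90 and 11.19 on day 30, and all 6 of these arrays lay above every array of day 4. With the low value raised to that percentile, day 25 exceeded day 4 by at least 6.43-fold and day 30 did so by at least 6.95-fold. The limma fit used the value as it was, with log2 differences of 4.14 (adjusted p = 0.0077) and 4.25 (adjusted p = 0.00566). Without the third replicate of day 4, days 25 and 30 were 4.13-fold and 4.47-fold higher than day 4 (adjusted p = 0.0254 and 0.0169). The days between were scattered: day 5 ranged from 8.35 to 10.88, day 6 from 9.94 to 10.48, day 8 from 8.64 to 10.24 and day 16 from 8.21 to 10.05. The F test over the 7 days passed narrowly (adjusted p = 0.0455), and its call was lost in 15 of the 21 fits that leave out 1 array (adjusted p 0.0504 to 0.0767).

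Bmp7, made in many epithelia and in the kidney, was lower on the late days. Probe set 1435479_at read 10.55, 10.23 and 9.51 on day 4 and 10.72, 10.58 and 10.79 on day 6. On day 25 the first and second replicates read 9.65 and 6.95 and the third lay between them, and on day 30 it read 9.32, 8.99 and 9.19. Day 25 overlapped day 4 by 1 array, while day 30 lay below both earlier days on every array. The F test passed (adjusted p = 0.0136 in limma). The signal fell at least 2.95-fold from day 4 to day 25 (adjusted p = 0.0183). That call rested on the second replicate of day 25, without which the difference was 1.70-fold (adjusted p = 0.132), and it was also lost without the first replicate of day 4 (adjusted p = 0.0727). Day 30 was 2.90-fold lower than day 6 (log2 difference -1.53, SE 0.47, adjusted p = 0.0257), and leaving out any single array of either day moved the adjusted p to 0.0516 to 0.0778. It was -1.49 (adjusted p = 0.0667) without the third replicates of days 4 to 6. Day 30 was 1.90-fold lower than day 4 (adjusted p = 0.153). Probe set 1418910_at lay under the 20th percentile on 10 arrays and did not pass (F adjusted p = 0.266), and 1432410_a_at lay under it on all 21.

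Nog, whose product binds Bmp2, Bmp4 and Bmp7 and keeps them from their receptors, was under the 20th percentile of the chip on 12 of 21 arrays and was not tested. Its probe set 1422300_at read 5.38, 6.70 and 8.38 on day 4 and 7.69, 6.35 and 8.55 on day 5. All 6 arrays of days 6 and 8 lay under that percentile, from 5.22 to 6.32. The values were 6.81, 8.38 and 8.33 on day 25 and 7.24, 8.61 and 8.25 on day 30. The late arrays lay above those of days 6 and 8, and overlapped those of day 4.

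Bmpr1a, a main type I receptor for Bmp2 and Bmp4, moved less than 2-fold. Its brightest probe set, 1425492_at, read 11.83, 10.89 and 11.58 on day 4. On day 6 it read 12.29, 12.57 and 12.08, on day 8 12.31, 12.37 and 12.25, and on day 16 12.29, 12.29 and 12.30. All 9 of these lay above the day 4 arrays. The signal was 1.84-fold higher than on day 4 on day 6 (adjusted p = 0.0387 in limma), 1.84-fold on day 8 (adjusted p = 0.0216) and 1.82-fold on day 16 (adjusted p = 0.0157). Without the second replicate of day 4, the lowest of that day, the differences were 1.53-fold, 1.52-fold and 1.51-fold and no longer passed (adjusted p = 0.186, 0.117 and 0.0927).

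On days 25 and 30 that probe set lay between 11.44 and 12.03 and the differences from day 4 did not pass. Probe set 1451729_at was 1.85-fold higher on day 16 (adjusted p = 0.0218 in limma) and 1425493_at was 1.78-fold higher on day 30 (adjusted p = 0.0377). Both calls were lost without the second replicate of day 4 (adjusted p = 0.126 and 0.183), and the latter also without the third replicates of days 4 to 6 (adjusted p = 0.113). Probe sets 1425491_at and 1425494_s_at passed in no comparison, and by the F test only 1425492_at passed (adjusted p = 0.0427), a call lost in 15 of the 21 fits without 1 array (adjusted p 0.0555 to 0.11). Centring each array on its median lowered every 430A difference of day 16 from day 4 by 0.12 on the log2 scale, and with it the calls of 1425492_at and 1451729_at were lost (adjusted p 0.0507 to 0.0837). The sixth probe set, 1445413_at on 430B, lay under the 20th percentile on 19 arrays and was not tested.

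Smad6, the inhibitory Smad that acts on BMP receptors, had 1 probe set, 1422771_at. It read 10.81, 11.70 and 9.08 on day 4, and 10.95, 11.32 and 10.79 on day 6. On day 25 it read 9.94, 9.92 and 9.89, and on day 30 it read 10.09, 9.17 and 10.09. The late arrays lay below those of days 6 and 8 and inside the range of day 4. With all arrays it did not pass the F test (adjusted p = 0.21 in limma) or the comparison of day 30 with day 4 (log2 difference -0.75, SE 0.48, adjusted p = 0.272). Without the third replicates of days 4 to 6 the F test passed (adjusted p = 0.00116) and the difference was -1.47 (SE 0.31, adjusted p = 0.00206). Day 25 against day 4 (-1.34, adjusted p = 0.00478) and day 30 against day 6 (-1.35, adjusted p = 0.00606) then passed as well. Over the 21 arrays of 430A, its signal went with that of Bmp4 (Pearson r = 0.81 across arrays that share day and scan batch, as a description).

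**Figure D2:**
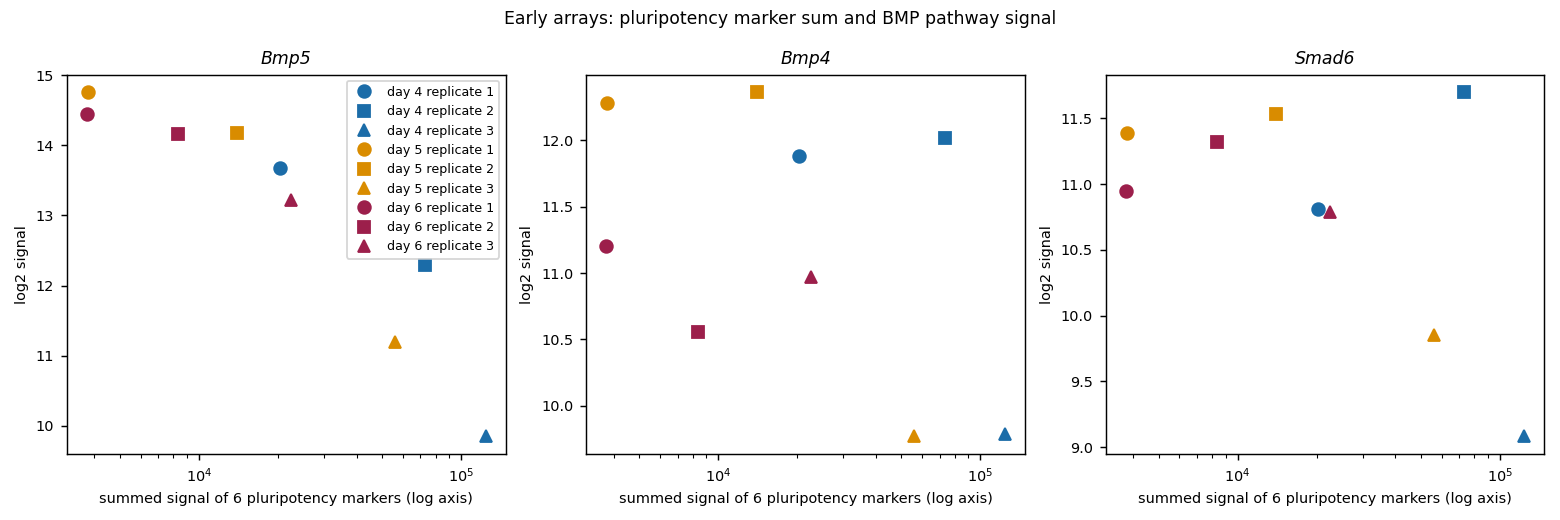
Log2 signal (vertical axis) of Bmp5, Bmp4 and Smad6 against the summed signal of 6 pluripotency markers of the same RNA (horizontal axis, log scale) on the 9 arrays of days 4, 5 and 6, with day as colour and replicate as symbol. Day 4 replicate 3, at 124100, has Bmp5 at 9.85 and Smad6 at 9.08, the lowest of the 9 in both panels.

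Among these 9 early samples, the 3 with the highest pluripotency sums were day 4 replicate 3, day 4 replicate 2 and day 5 replicate 3. They held the 3 lowest Bmp5 values, 9.85, 12.30 and 11.19. For Bmp4 and Smad6 the second replicate of day 4 did not follow, with 12.02 and 11.70, the highest of its day in both.

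The Id genes, the best known targets, behaved differently from each other. Id2, an inhibitor of E proteins, rose between day 4 and day 6 and stayed up. Its probe set 1435176_a_at read 9.34, 7.91 and 8.74 on day 4. On day 5 it read 11.58, 10.95 and 9.18, with the third replicate still inside the range of day 4. On day 6 it read 12.19, 11.81 and 10.17, and every array from then on lay above 10. The values were 11.32, 11.55 and 10.95 on day 8, and 11.13, 12.00 and 11.25 on day 16. They were 11.45, 11.12 and 11.07 on day 25, and 11.67, 10.83 and 10.81 on day 30, so the level of the later days did not go on rising.

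Against day 4, Id2 1435176_a_at was 6.63-fold higher on day 6 (log2 difference 2.73, SE 0.52, adjusted p = 0.0062 in limma). Without the third replicate of day 6 this was 10.1-fold. It was 6.09-fold higher on day 8 (adjusted p = 0.00228), 6.95-fold on day 16 (adjusted p = 0.000582), 5.85-fold on day 25 (adjusted p = 0.00125) and 5.43-fold on day 30 (adjusted p = 0.00152). The rise by day 5 passed only without the third replicates of days 4 to 6 (6.23-fold, adjusted p = 0.0133), and days 4 and 5 were scanned together on 430A. None of the steps after day 5 passed. A second probe set, 1422537_a_at, followed it across arrays (r = 0.91 over 21 arrays) from 7.85, 5.66 and 6.50 on day 4 to 9.51, 9.41 and 9.93 on day 30. Its rise was at least 4.73-fold by day 6 (adjusted p = 0.0251) and at least 5.15-fold by day 30 (adjusted p = 0.0048). As fitted in limma, with no value raised, the day 6 difference was 2.83 on the log2 scale. It was 3.41 without the third replicates of days 4 to 6 (adjusted p = 0.00301). The day 6 call was lost without any one of 4 arrays (adjusted p 0.0572 to 0.13), and the F call without day 4 replicate 2 or replicate 3 (adjusted p = 0.0952 and 0.0586). The third probe set, 1453596_at, stayed between 6.99 and 8.91 and did not pass (F adjusted p = 0.567), so the probe sets of Id2 disagree.

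Id1, the Id gene most often used as a readout of BMP signalling, had no call. Probe set 1425895_a_at read 10.12, 10.65 and 9.80 on day 4 and 10.56, 10.10 and 10.44 on day 30. All 21 arrays lay between 9.67 and 10.83. The difference of day 30 from day 4 was 0.18 (SE 0.27, adjusted p = 0.669 in limma), and it was -0.01 without the third replicate of day 4. The highest day was day 6, with 10.78, 10.64 and 10.83, above every array of days 5, 8, 25 and 30.

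Id3, a close relative of Id1, read 11.54, 10.90 and 10.27 on day 4 with probe set 1416630_at. It read 12.11, 11.90 and 10.93 on day 5 and 10.92, 9.88 and 10.83 on day 30. The F test did not pass (adjusted p = 0.109 in limma). Day 30 lay below day 6 on every array, by 1.03 on the log2 scale, with an adjusted p of 0.0518. Without the third replicates of days 4 to 6 that difference was -1.19 (adjusted p = 0.0214), and the F test passed (adjusted p = 0.0228).

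**Figure D3:**
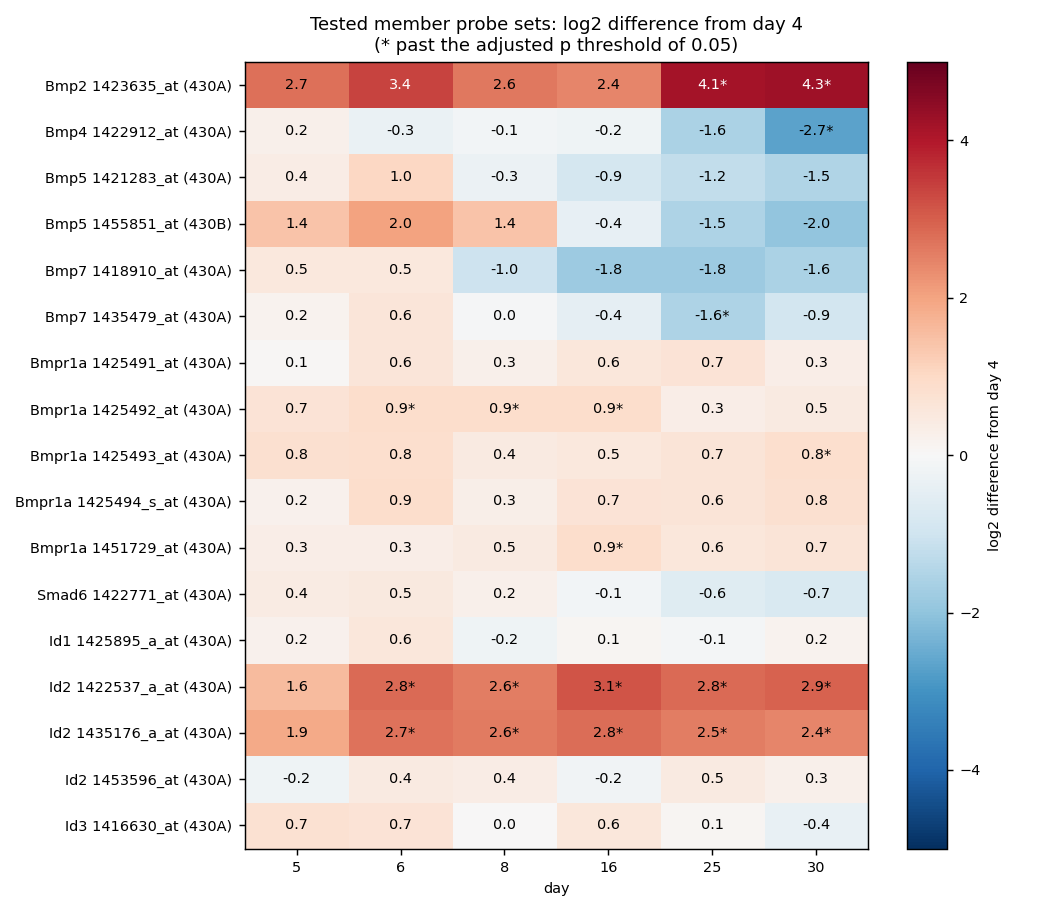
Log2 difference from day 4 (colour and number) for the 17 tested probe sets (rows) on each later day (columns), with an asterisk where limma's adjusted p was under 0.05. The first pair of Id2 probe sets carries an asterisk on all days from day 6, Bmp2 on days 25 and 30, Bmp4 on day 30 and Bmp7 1435479_at on day 25.

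None of the 17 probe sets passed in any of the 6 steps between successive days in limma, day 5 with day 4 among them. In the other 5 steps the share of all tested probe sets that passed was 0.0544% (day 6 with day 5), 0.063% (day 8 with day 6), 1.69% (day 16 with day 8), 0.346% (day 25 with day 16) and 0% (day 30 with day 25). The member probe sets with an unadjusted p under the threshold numbered 0, 1, 1, 3 and 0 in the same order. Day 16 with day 6, both of 1 scan batch, also gave 0 calls among the members beside 6.3% of all, with 2 at an unadjusted p under the threshold. The percentages are shares after adjustment, and none was computed for the unadjusted p. Day 30 with day 6 gave 3 calls beside 12.2% of all, the Bmp4, Bmp5 and Bmp7 probe sets described above, each lower (6.33% of all were lower). Of these, 2 were among the 16 on 430A (12.5%), where 20.3% of the chip passed, and Bmp5 was on 430B, where 4.66% did. Without the third replicates of days 4 to 6, 10 of the 17 probe sets passed the F test, beside 20.4% of all, and 7 passed on day 30 against day 4, beside 15.9%. On 430A alone these were 9 of 16 (56.2%) beside 33.3% of the chip, and 6 of 16 (37.5%) beside 26.2%.

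The other genes of the pathway were taken from a list of 60, of which 55 had a probe set of their own and 49 were tested. In the F test 19 of the 49 passed, beside 28.7% of all 15592 genes tested. On 430A, which stood for 39 of them, 18 passed (46.2%) beside 37.3% of its genes. On day 30 against day 4, 8 were higher, 6 were lower and 35 did not pass, with a median difference of -0.09 beside -0.03 over all genes. Over all genes 12.1% were higher and 10.4% lower. On 430A 13 of the 39 passed this comparison (33.3%), beside 29.3% of its genes. None of the 6 measured ligands outside the 10 members and none of the 5 Smads (Smad1, Smad5, Smad9, Smad4 and Smad7) passed the F test or this comparison.

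Of the 13 measured secreted antagonists and modulators, 6 were higher on day 30 than on day 4 and 1 was lower, with a median of 1.34 on the log2 scale. Over all genes 12.1% were higher and 10.4% lower, or 15.5% and 13.9% of those on 430A. Crim1, a membrane protein that binds BMPs, rose at least 62.8-fold (adjusted p = 8.24e-06 in limma), and its log2 signal went from 7.18 ± 1.02 on day 4 to 10.18 ± 0.39 on day 16 and 13.47 ± 0.21 on day 30 (SD, n = 3). Its other probe set, 1452253_at, rose by 3.06 on the log2 scale (adjusted p = 0.00481). Bmper, a secreted BMP-binding protein, went from 11.81 ± 1.31 to 14.83 ± 0.19 and was 8.11-fold higher (adjusted p = 0.000107), or 5.06-fold without the third and 12.5-fold without the first replicate of day 4. Grem1 (gremlin), which binds Bmp2 and Bmp4, went from 8.71 ± 0.19 to 10.41 ± 0.18 and was 3.25-fold higher (adjusted p = 0.00162). On day 6 none of these 3 had passed, with differences from day 4 of -0.29, 0.33 and -0.02.

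Fst (follistatin), which binds activin and some BMPs, went from 11.39 ± 0.19 on day 4 through 9.80 ± 1.16 on day 6 to 13.86 ± 0.59 on day 30 (SD, n = 3). Its rise was 5.54-fold (adjusted p = 0.0304 in limma), a call lost without any one of 5 arrays (adjusted p 0.0516 to 0.11), and its probe set on 430B rose by 2.72 on the log2 scale (adjusted p = 0.00313). Fstl1, a secreted relative of follistatin, peaked on day 16, when it was 15.5-fold higher than on day 4 (adjusted p = 9.97e-05). Bmp1, a protease that cleaves the BMP inhibitor chordin and no BMP ligand, also peaked on day 16, at 8.98-fold (adjusted p = 0.000316). On day 30 they were 3.27-fold and 3.35-fold higher (adjusted p = 0.043 and 0.023), calls that were lost without single arrays (adjusted p up to 0.145 and 0.124) and without the third replicates of days 4 to 6 (adjusted p = 0.0674 and 0.0716). The other Fstl1 probe set, 1416221_at, was higher on day 30 than on day 4 by 1.78 on the log2 scale (adjusted p = 0.0273). The modulator that was lower was Cer1 (cerberus), whose fall by day 30 was at least 5.09-fold (adjusted p = 0.0232), a call lost without any one of 4 arrays. It is named here after its value was seen.

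**Figure D4:**
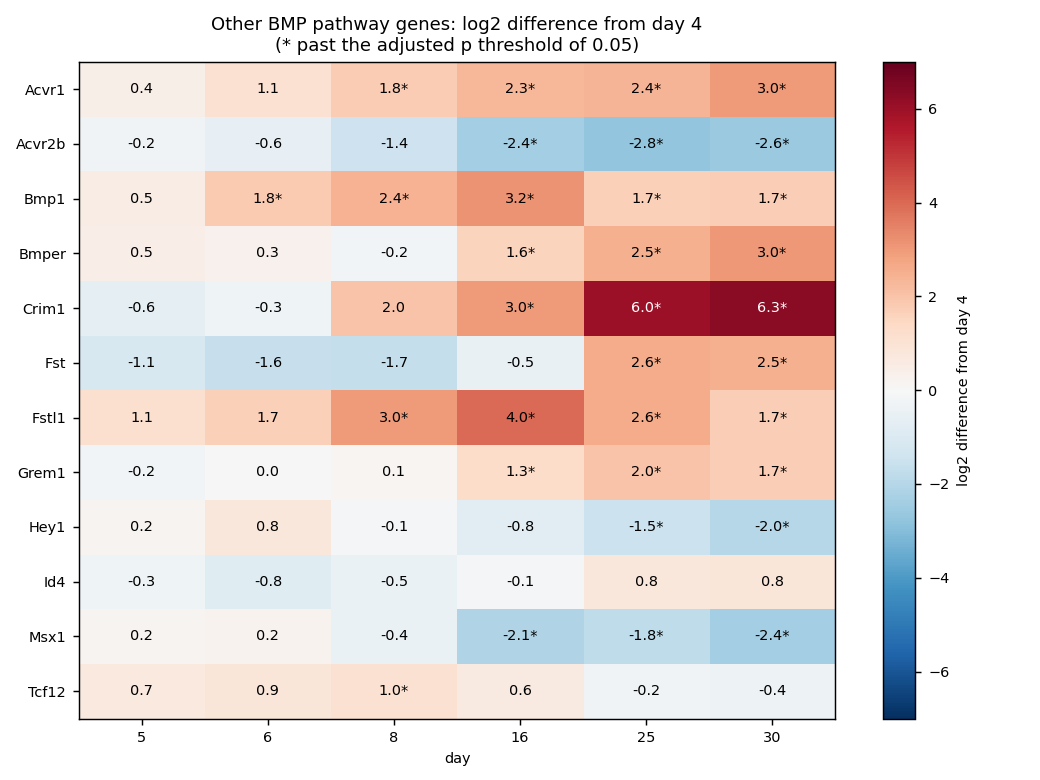
Log2 difference from day 4 (colour and number) on each later day (columns) for the 12 other BMP pathway genes with the smallest adjusted p in the F test (rows), with an asterisk where limma's adjusted p was under 0.05. Crim1 reaches 6.29 on day 30 and Acvr1 2.96, while Msx1 and Acvr2b reach -2.36 and -2.62.

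Among 11 measured receptors and co-receptors, 1 was higher and 1 lower on day 30 than on day 4, beside 12.1% and 10.4% of all genes. Acvr1, a type I receptor used by Bmp7, went from 8.69 ± 0.51 to 11.64 ± 0.35 with probe set 1448460_at (SD, n = 3) and was 7.77-fold higher (adjusted p = 4.79e-06 in limma). Its other 2 probe sets gave -0.21 and -0.11 and did not pass (adjusted p = 0.856 and 0.81), so the probe sets of Acvr1 disagree. Acvr2b, a type II receptor, went from 11.36 ± 0.76 to 8.73 ± 0.34 and was 6.16-fold lower (adjusted p = 0.00105), while its 430B probe set gave -0.89 (adjusted p = 0.558).

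Of the 5 measured target genes 2 were lower on day 30 than on day 4, beside 10.4% of all genes, or 13.9% of those on 430A. Msx1, a homeobox gene, went from 11.61 ± 1.05 on day 4 and 11.84 ± 0.54 on day 6 to 9.48 ± 0.52 on day 16 and 9.25 ± 0.37 on day 30 (SD, n = 3), where it was 5.14-fold lower than on day 4 (adjusted p = 0.00036 in limma), or 7.79-fold without the third replicate of day 4. A second Msx1 probe set gave -0.91 (adjusted p = 0.115). Hey1, a transcriptional repressor, went from 10.24 ± 0.67 to 8.24 ± 0.99 and was 3.98-fold lower (adjusted p = 0.00484). Id4, the remaining Id gene, was 1.79-fold higher on day 30 by its brightest probe set, 1423260_at (adjusted p = 0.0624), and its other 2 probe sets rose by 2.62 on the log2 scale (adjusted p = 0.00184 and 6.94e-05).

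The 3 E proteins that Id proteins bind all passed the F test, beside 28.7% of all genes, or 37.3% of those on 430A. On day 30 against day 6 all 3 were lower, Tcf12 by 2.34-fold (adjusted p = 0.0039 in limma), Tcf3 by 1.94-fold (adjusted p = 0.0164) and Tcf4 by 1.92-fold (adjusted p = 0.0146), beside 8.02% of all genes that were lower, or 10.9% of those on 430A. Against day 4 only Tcf3 passed on day 30, 2.00-fold lower (adjusted p = 0.0086, or 0.0542 without 1 of the arrays). Another Tcf12 probe set, 1421908_a_at, rose by 1.34 on the log2 scale between day 4 and day 30 (adjusted p = 0.000778). The Tcf12 probe set given above did not pass that comparison. The 3 Tcf12 probe sets on 430B gave -0.54, -0.97 and 0.85 and did not pass either (adjusted p = 0.82, 0.589 and 0.592). The probe sets of Tcf12 thus differ on day 30 against day 4.

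For the 4 members with the smallest adjusted p in the F test, the probe sets most like them were those with the highest Pearson correlation of log2 signal over the 21 arrays of the chip, which share day, scan batch and scaling. For Bmp5 these were Nrp1, a semaphorin and VEGF co-receptor, Spin2c and Sox11, a transcription factor of neural progenitors, with r of 0.92, 0.92 and 0.91. Nrp1 had day means of 11.52 on day 4, 13.00 on day 8 and 9.91 on day 30. For Id2 they were Sh3glb1, Rgs4, a regulator of G protein signalling, and the kinase Hipk3, with r of 0.92, 0.91 and 0.91. Rgs4 went from a mean of 6.64 on day 4 to 9.30 on day 6 and 9.10 on day 30. For Bmp4 they were Smo, the transducer of hedgehog signals, Ror2, a Wnt5a receptor, and Arl3, with r of 0.91, 0.88 and 0.87. Smo went from a mean of 11.31 on day 4 to 10.17 on day 30. For Bmp7 they were the adhesion molecule Cadm1, the desmosomal protein Pkp2 and the kinase Mapk12, with r of 0.89, 0.88 and 0.87. Among the members themselves, Id2 1435176_a_at and Bmpr1a 1425492_at had an r of 0.77, again as a description.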

How the data were processed

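Total RNA of 21 samples was measured on 2 Affymetrix mouse chips. The deposited values are linear signal intensity from MAS5, as the submitters' processing notes name it, and their version is not given. On every array the authors' values had a mean close to 1500 after the highest and lowest 2% were left out. Here their log2 was used, with nothing added. A probe set was tested if 3 or more of the 21 arrays had it over their own 40th percentile, which left 16686 on 430A and 18239 on 430B. Each chip was fitted alone with limma 3.58.1 (R 4.3.3), day as a factor, 14 residual degrees of freedom and eBayes with a trend, and two-sided p-values were adjusted by Benjamini-Hochberg per chip and comparison, with a threshold of 0.05. A value of the lower day under the chip's 20th percentile (log2 6.96 on 430A, 7.67 on 430B) was raised to it, and the fold is then written "at least". The fits and their p-values used the log2 values with none raised.

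Symbols came from the platform annotation (20393 probe sets with 1 symbol on 430A, 14674 on 430B; 691 and 245 with several; 1606 and 7656 with none). A pathway gene stands for its brightest tested 430A probe set, or its 430B one. The text names all members, the 12 other pathway genes with the smallest F p past the threshold, and the 3 nearest probe sets of 4 members. From the pathway list, Cer1, Tcf3, Tcf4 and the Smads are named beyond those 12. Single marker genes are named as well. Members and lists were chosen with earlier results of these data known. Whole-array medians were 476.03 to 684.26 on 430A and 793.74 to 905.24 on 430B, and precision is limited by how many arrays there are. The tests were checked on simulated data. Alternatives covered the filter, scaling, offset, robust eBayes, replicate and scan blocks, and leaving out arrays.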

Additional observations from a re-analysis of the deposited data

How the results depend on the processing

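The alternatives were tallied over single results together with the share of all tested probe sets called in each comparison. Each entry is 1 result or share under 1 alternative, so a result is counted once for every alternative. Of these entries 2716 were the same as in the fit described above. That means the same direction and side of the threshold for a result, or a share within 1.5 times. Among the entries for results 134 lost a call, 16 gained a call and 2 reversed, and the 71 entries that moved were all shares. Several of the 134 can belong to 1 result. The reversals were both Id1 on day 30 against day 4, which was -0.014 without day 4 replicate 3 and without the third replicates of days 4, 5 and 6, and up to 0.41 without other single arrays. The counts of member probe sets past the threshold that moved by over 1.5 times were as follows. Median centring gave 2 on day 16 against day 4, in place of 4. Leaving out the third replicates of days 4, 5 and 6 gave 1 on day 5 against day 4, 7 on day 25 against day 4, 5 on day 30 against day 6, 1 on day 16 against day 6 and 1 on day 16 against day 8. With the replicate block the counts were 1 on day 16 against day 6 and 5 on day 30 against day 6, and Bmp5 1455851_at passed on day 30 against day 4 (adjusted p = 0.0336). Of the pairs of samples with the same number, 16 of 63 on 430A had deviations correlated above 0.1 (r -0.10 to 0.36), beside 5 of 126 pairs with other numbers, and on 430B it was 1 of 63 (r -0.04 to 0.11) beside 0 of 126. Since not every pair passed 0.1, the numbers were not taken to pair the samples. That rule is strict and cannot show that they were unpaired.

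Leaving out 1 array at a time gave 5 to 8 calls in the F test. Against day 4 it gave 0 to 1 on day 5, 1 to 6 on day 6, 1 to 4 on day 8, 2 to 6 on day 16, 3 to 7 on day 25 and 4 to 7 on day 30. It gave 2 to 6 on day 30 against day 6, 0 to 1 on day 16 against day 6, and 0 to 0 in each of the other steps. For the other pathway genes it gave 17 to 20 in the F test, 5 to 9 higher and 3 to 8 lower on day 30. Scan date as a random block had a consensus correlation of -0.03 on 430A and 0.03 on 430B and gave 7 calls in the F test. Scan date as a fixed block was fitted on both chips for day 5 against day 4, day 8 against day 6, day 16 against days 6 and 8, and day 30 against day 25. On 430B it was also fitted for day 6 against day 5 and for days 6, 8 and 16 against day 4, where Bmp5 1455851_at did not pass (-0.08, -0.64 and -2.49). Days and batches cannot be told apart in the other comparisons.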
